A study of Mus musculus with 31 samples.

Results

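The genes described here were 8 members of the Bardet-Biedl group, Bbs1, Bbs2, Bbs4, Bbs5, Bbs7, Bbs9, Bbs10 and Bbs12, out of 41255 genes in each of the deposited tables. All 8 were found by symbol in both the total mRNA and the polysomal RNA table. The group was selected on a measured value, the level of Bbs7, which was close to 0 in WT cells and high in R98S cells in both fractions. The genotype difference of Bbs7 is therefore given as a description with no test, whereas the other 7 members were tested in fits across all genes.

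The cells were Ba/F3, a mouse lymphoid line that grows on interleukin-3. In all of them, WT and R98S alike, the endogenous Rpl10 transcript was lowered by a short hairpin RNA and a human RPL10 coding sequence was supplied by a retrovirus, either unchanged (WT) or with the R98S substitution of the ribosomal protein (R98S). RNA was sequenced from 3 single-cell-derived clones of each genotype, R98S clones 11, 13 and 35 and WT clones 28, 29 and 36, as total mRNA (9 R98S and 8 WT libraries) and as RNA from polysomal fractions, those of a sucrose gradient whose transcripts carry at least 2 ribosomes (8 R98S and 6 WT libraries). Libraries carried a replicate number from 1 to 3, and each of the 14 polysomal libraries had a total mRNA library of the same clone and number. Each clone grew from a single transduced cell picked for a low Rpl10 level, so the genotypes are represented by 3 clones each, however many libraries were made, and differences between the founder cells and the genotype cannot be told apart beyond that number.

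Primary cilia are antenna-like projections that carry receptors, and the BBSome is the coat-like complex that moves membrane proteins in and out of them. Bbs1, Bbs2, Bbs4, Bbs5, Bbs7, Ttc8 (also called BBS8), Bbs9 and Bbip1 (BBIP10) encode its subunits, the small GTPase Arl6 (BBS3) recruits it to membranes, and Bbs10, Bbs12 and Mkks (BBS6) encode chaperonin-like proteins that, with the CCT chaperonin, assemble a core of Bbs2, Bbs7 and Bbs9. Loss of any of them causes Bardet-Biedl syndrome or a related ciliopathy. Lymphoid cells are generally regarded as cells without a primary cilium.

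Libraries held between 8831180 and 22059792 counted reads. Values are normalized counts, that is, read counts divided by a size factor of the library. Rpl10, the targeted gene, was read at 901 to 2984 in R98S total mRNA and at 620 to 5715 in WT, and since all clones carry the hairpin and human RPL10 reads can align to it, this level does not check the labels. The study had set aside a further WT library, of clone 36 with number 1, because its profile grouped with R98S; it was not analysed here, so the separation of the genotypes in total mRNA is conditional on that choice. Of 13 B-lymphoid and Ba/F3 markers, Csf2rb, Csf2rb2, Il3ra, Ptprc, Cd79a and Cd79b were read at 10 or more, whereas 6 had a mean under 1 in both genotypes, among them Ebf1, Pax5 and Rag1, so that defining markers of the B lineage were missing. None of the 10 multiciliated, 5 fibroblast or 4 epithelial markers had a mean of 10 or more in either genotype. The 13 markers summed to 110180 to 222360 in R98S and 56843 to 102240 in WT total mRNA, with no overlap, and Csf2rb and Csf2rb2, the receptor chain genes that make up most of the sum, rose by log2 differences of 1.20 and 1.20 (limma adjusted p = 1.78e-05 and 1.65e-05), while Cd79b rose by 0.87 (adjusted p = 0.00667) and Ptprc fell by 0.48 (adjusted p = 0.0646). In total mRNA the summed T cell markers came to 40.5 to 108 in R98S and 13.4 to 66.2 in WT, the myeloid ones to 2.76 to 411 and 33.0 to 213, and the erythroid ones to 452 to 1586 and 702 to 2717. The genes called among them were Cd3d (log2 difference 1.85), Lyz2 (-2.66) and Hba-a1 (-3.41). The part of these marker differences in the results below was not tested. The total mRNA libraries of R98S clones 13 and 35 with number 2 stood apart: over the 3369 genes that differed between the genotypes they lay 67.3% and 68.4% of the way from the WT mean to the R98S mean, against 98.5% to 117% in the other R98S libraries and -8.25% to 10.6% in WT. The differences of the members called in total mRNA, Ttc8 and Arl6 are given with and without them.

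Bbs7 encodes a subunit of the BBSome core and lies on the minus strand of mouse chromosome 3 at chr3:36573142-36613477 (GRCm38, the build also called mm10), where the annotation gives 19 separate exon blocks with 5390 exon bases. No stretch of 50 bases of its transcripts occurred in transcripts of another gene, so no near-identical annotated copy could share its reads. The RefSeq promoter window of Bbs7, 250 bases before to 50 bases after the RefSeq start (chr3:36613340-36613639, minus strand, GRCm38.p6), is shown because the gene was read in one genotype and almost not in the other. The first run of capitals marks a match to the X-box palindrome, the site bound by RFX transcription factors that is common in promoters of ciliary genes, and the next run marks an E-box, a site of basic helix-loop-helix factors.
Bbs7 promoter: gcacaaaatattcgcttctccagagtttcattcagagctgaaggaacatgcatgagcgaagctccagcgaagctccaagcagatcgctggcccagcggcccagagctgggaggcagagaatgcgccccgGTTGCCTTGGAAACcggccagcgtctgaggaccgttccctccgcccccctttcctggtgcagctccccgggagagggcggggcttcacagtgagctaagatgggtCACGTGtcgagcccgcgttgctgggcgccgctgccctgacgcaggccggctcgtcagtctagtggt
The palindrome (GTTGCC, 2 free bases, GG, a free base, AAC; searched on both strands) began 121 bases before the RefSeq start and was found in 0.298% of 32851 RefSeq promoter windows of this length. Among the windows of the 8 members, Ttc8, Bbip1, Arl6 and Mkks, only that of Bbs7 held it in full. The Bbs1 window held a near match that differed at 1 fixed base and began 1 base after the RefSeq start. The palindrome was searched for as a full match only, so near matches in the other windows were not counted. Its first 6 bases, GTTGCC, also occurred in the windows of Bbs1 and Bbs5 and in 12.5% of all windows, and the E-box CACGTG, 16 bases before the RefSeq start, occurred in that of Bbs7 and in 7.15% of all windows. The Bbs7 window held 22 CpG dinucleotides, against a median of 7 over all windows, and those of the other members held 11 (Bbs4), 12 (Bbs1), 13 (Bbs5), 23 (Bbs9), 26 (Bbs2), 27 (Bbs10) and 29 (Bbs12). These motifs were chosen after the promoter sequences had been seen, and a match is a description of letters, not of binding.

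In total mRNA of R98S cells, Bbs7 was read at 5378, 5616 and 7365 normalized counts in clone 11 (numbers 1 to 3), at 3226, 1937 and 3096 in clone 13, and at 3873, 2658 and 4907 in clone 35. In WT cells it was read at 0, 1.71 and 1.07 in clone 28, at 4.39, 0 and 1.03 in clone 29, and at 1.00 and 0.943 in clone 36 (numbers 2 and 3). All 9 R98S libraries were thus high, all 8 WT libraries were near 0, and the groups lay about 3 orders of magnitude apart. The WT values stood for 9 reads in all, at most 4 in a library, against 39801 reads in R98S. For the 2 WT libraries at 0, 3 reads, the upper limit that a count of 0 allows, would be 2.62 and 2.78 normalized counts. The mean was 4228 ± 1720 (SD, n = 9) in R98S and 1.27 ± 1.39 (SD, n = 8) in WT, and the ratio of reads per unit of depth was 3465 (exact 95% counting interval 1825 to 7579, which covers counting error only).

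Polysomal RNA had the same split. In R98S, Bbs7 was read at 4123 and 1174 in clone 11 (numbers 1 and 3), at 2018, 2048 and 337 in clone 13, and at 1976, 1915 and 816 in clone 35. In the 6 WT libraries it was read at 0.732 in clone 29 number 2, at 1.32 in clone 36 number 3, and at 0 in the other 4, which together is 2 reads against 16024 in R98S. The ratio of reads per unit of depth was 6419 (exact 95% counting interval 1777 to 53009). This interval too covers counting error only, not the spread between libraries or clones, and its width follows from the 2 WT reads. On the log2(value + 1) scale the difference was 10.95 (total mRNA) and 10.18 (polysomal RNA), and no other gene among the 11133 and 10707 tested had a larger one in the direction of R98S.

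**Figure D1:**
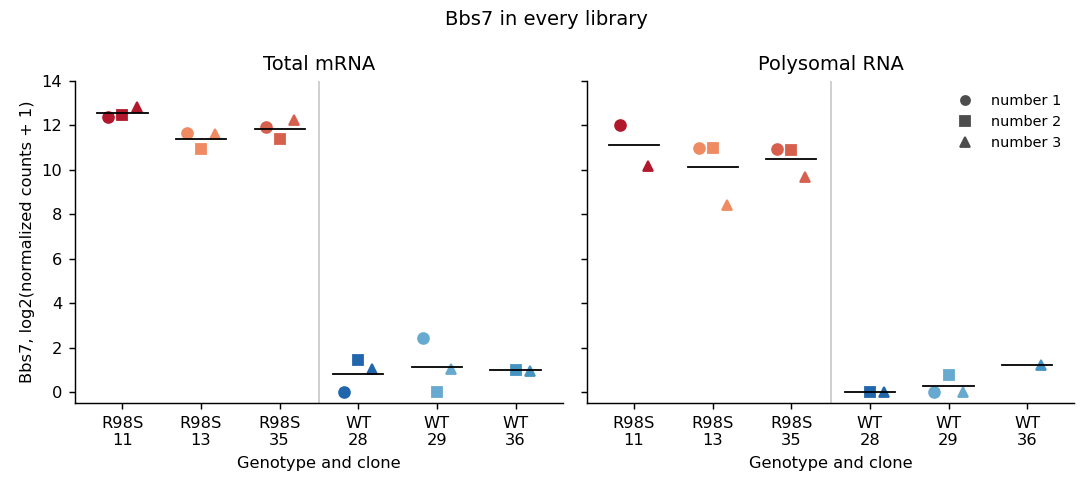
Bbs7 in each library as log2(normalized counts + 1), by genotype and clone, in total mRNA (left) and polysomal RNA (right); symbols give the replicate number and lines the mean of each clone. All R98S libraries lie far above all WT libraries, R98S clone 11 lies above clones 13 and 35 in total mRNA, and the polysomal values of number 3 are the lowest of each R98S clone.

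Among the R98S clones, clone 11 had the highest Bbs7 level in each replicate number. As the group was selected on the Bbs7 values of each clone, this is a description with no test. Clone 11 averaged 6120 ± 1085 (SD, n = 3), clone 35 averaged 3812 ± 1126 and clone 13 averaged 2753 ± 710 normalized counts in total mRNA. Within a replicate number, clone 11 exceeded the log2 mean of clones 13 and 35 by 1.52-, 2.47- and 1.89-fold in total mRNA (numbers 1 to 3) and by 2.06- and 2.23-fold in polysomal RNA (numbers 1 and 3). The order 11, 35, 13 held in all 3 numbers of total mRNA, and the ranges of clones 35 and 13 overlapped. The 2 libraries that lay between the genotypes, clones 13 and 35 with number 2, held the 2 lowest Bbs7 values of R98S total mRNA. The other 7 members were tested for differences between clones by limma's F test with the replicate number as a block. In R98S none passed (0 of 7 called by limma or edgeR, 0 with an unadjusted p under 0.05), where 7.28% of all genes tested were called, and without number 2 Bbs12 did (limma adjusted p = 0.0787). In WT none passed either (0 of 7 called by limma or edgeR, 1 with an unadjusted p under 0.05), where 0.0359% of all genes were called.

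Compared per kb of exon, Bbs7 was the highest of the BBSome genes in R98S and the lowest in WT. In R98S total mRNA it stood at 784 ± 319 normalized counts per kb (SD, n = 9), and none of its libraries overlapped those of the next gene, Bbs12, at 133 ± 59.4. The other 7 subunits summed to 273 normalized counts per kb, so that Bbs7 held 74.2% of the subunit total. In WT total mRNA the other 7 summed to 317 and Bbs7, at 0.235, held 0.0741%. Bbs7 was above 91.6% of 10600 genes per kb in R98S total mRNA, whereas Bbs1, Bbs2, Bbs4, Bbs5 and Bbs10 were each above between 8.95% and 15.4% of them, Bbs9 above 36.4% and Bbs12 above 49.9%. In polysomal RNA the share of Bbs7 was 48.2% in R98S (334 ± 211 per kb, n = 8) and 0.0123% in WT, and its range overlapped that of Bbip1 (223 ± 167 per kb).

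Among the other genes, Bbs12, Bbip1, Mkks, Bbs9 and Arl6 were the 5 highest per kb in total mRNA of both genotypes, and Ttc8 was the lowest. In polysomal RNA Bbs1 was the lowest of them in both genotypes, and in WT Bbs5 (64.8) stood above Bbs9 (62.8) with overlapping ranges. In WT total mRNA the order was Bbs12 (218 ± 85.9), Bbip1 (117 ± 13.4), Mkks (104 ± 9.25), Bbs9 (79.1 ± 15.1), Arl6 (74.0 ± 13.1), Bbs2 (38.8 ± 7.08), Bbs5 (31.2 ± 8.15), Bbs10 (19.3 ± 5.79), Bbs1 (17.6 ± 3.70), Bbs4 (17.5 ± 4.24) and Ttc8 (16.1 ± 6.58 normalized counts per kb, SD, n = 8). Every neighbouring pair in this sequence overlapped in range, and only the last, Ttc8, was separated from what followed it, Bbs7. In R98S total mRNA the neighbours Arl6 and Bbs10 did not overlap in range, while those of Arl6 and Bbs2 did.

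**Figure D2:**
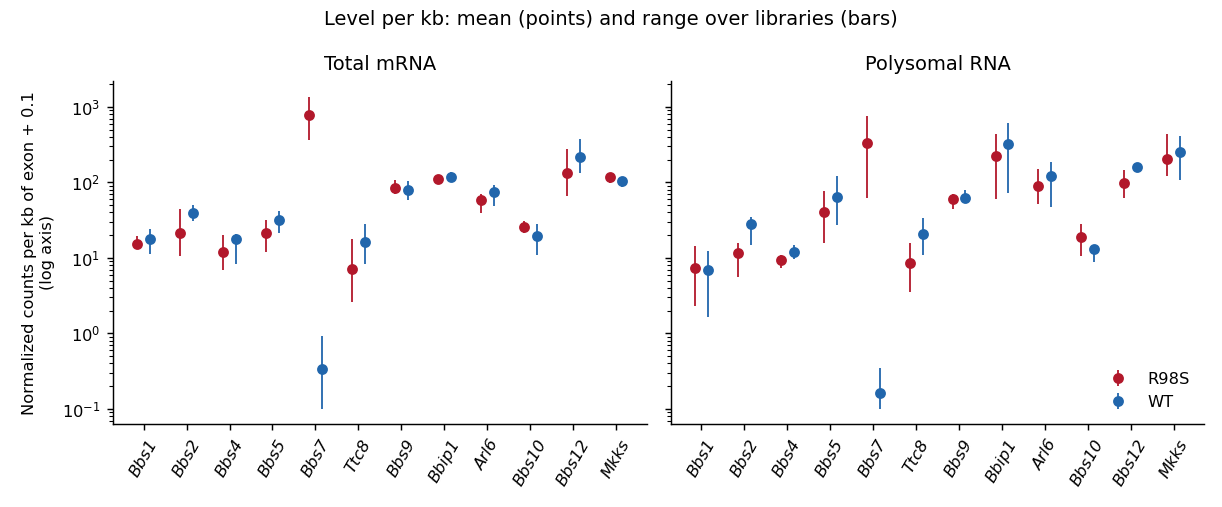
Normalized counts per kb of exon, plus 0.1, on a log axis, for the 8 subunits, Arl6 and the chaperonin-like genes in total mRNA (left) and polysomal RNA (right); points are means and bars the range over libraries of R98S (red) and WT (blue). Bbs7 changes from the highest gene in R98S total mRNA to the lowest in WT, while the ranges of the other genes overlap between the genotypes.

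Genes around Bbs7 did not show its pattern. Of 18 genes whose annotated start lay within 500 kb of that of Bbs7 and that were in both tables, 12 had a mean under 2 normalized counts in total mRNA of both genotypes and 6 could be tested. Ccna2, which encodes cyclin A2 and starts 41.3 kb away, averaged 5951 ± 1575 in R98S and 4778 ± 1015 in WT total mRNA (log2 difference 0.30, limma adjusted p = 0.171). Exosc9, an exosome subunit gene 60.9 kb away, averaged 486 ± 106 and 412 ± 115 (adjusted p = 0.297 by limma). Of the 6, 1 passed in total mRNA, D3Ertd254e at 462 kb, where 30.3% of all genes did. It was lower in R98S by 0.28 on the log2 scale (SE 0.10, limma adjusted p = 0.0545), a call lost in 7 of 20 alternatives. By limma 0 of 6 passed in polysomal RNA (0 with an unadjusted p under 0.05), against 13.5% of all genes. With the replicate number as a block 1810062G17Rik was called in polysomal RNA (limma adjusted p = 0.00632), where 30.9% of all genes passed. The remaining 3, Anxa5, 1810062G17Rik and 4932438A13Rik, had total mRNA log2 differences of -0.18, -0.04 and -0.29 with limma adjusted p of 0.347, 0.927 and 0.336.

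The 5 genes whose log2 values followed those of Bbs7 most closely over the 17 total mRNA libraries, out of 9255 genes with a mean of at least 100, were Lpgat1, a lipid acyltransferase gene (r = 0.992), Gm973 (r = 0.977), the pseudogene Gm10040 (r = 0.973), Ptprcap, which encodes a partner of CD45 (r = 0.969), and Tulp1, a tubby-like gene of photoreceptors (r = 0.965). The libraries share their genotype, so these values mostly repeat the gap between R98S and WT. Within the 9 R98S libraries alone r was 0.81, 0.68, 0.89, 0.55 and 0.10 in the same order, given as a description. Lpgat1 averaged 376 in R98S and 0.251 in WT and Gm973 averaged 288 and 1.00, whereas Tulp1 averaged 344 and 32.2. The mean of at least 100 was taken over all libraries. Of these 5 genes only Gm10040, with a mean of 249 in WT, reached it without R98S. Of the exon bases of Ptprcap, 76.0% are also covered by Rps6kb2, so its reads may belong to either gene.

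Bbs2, a core subunit gene at chr8:94067954-94098928 on the minus strand, was the member other than Bbs7 with the clearest difference, and it fell. In total mRNA its R98S libraries spanned 34.2 to 145 with a median of 55.1, and its WT libraries 101 to 166 with a median of 119. All R98S libraries but 1, clone 13 number 2 at 145, lay below every WT library. The log2 difference was -0.96 (SE 0.22, limma adjusted p = 0.00415), and without clones 13 and 35 of number 2 it was -1.19 with an adjusted p of 1.35e-04 by limma. In polysomal RNA the R98S libraries spanned 18 to 51.4 (median 42.4) and the WT libraries 48.0 to 115 (median 99.5). There 7 of 8 R98S libraries lay below all WT libraries, with a log2 difference of -1.26 (SE 0.28, limma adjusted p = 0.00778). Bbs2 was called in both fractions under every alternative tried, 20 in total mRNA and 18 in polysomal RNA.

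Bbs4, at chr9:59321990-59353508 (minus strand), and Bbs5, at chr2:69647171-69667571 (plus strand), encode the subunits read at low to middle levels; the Bbs5 protein binds phosphoinositides through its pleckstrin-like domains. In total mRNA, R98S libraries spanned 40.5 to 121 (median 65.1) for Bbs4 and WT libraries 49.98 to 126 (median 114), and Bbs4 fell by 0.56 on the log2 scale (SE 0.21, limma adjusted p = 0.0592). Its ranges overlapped at both ends, through R98S clone 13 number 2 at 121 and WT clone 36 number 3 at 49.98. Without R98S clones 13 and 35 of number 2 the difference was -0.64 (limma adjusted p = 0.0310) for Bbs4 and -0.61 (limma adjusted p = 0.0522) for Bbs5. For Bbs5 the R98S libraries spanned 28.6 to 76.3 (median 53.7) and the WT libraries 51.6 to 102 (median 74.4), a fall of 0.54 (SE 0.21, limma adjusted p = 0.0635), and 4 of 9 R98S libraries lay below every WT value. Neither passed in polysomal RNA, where the log2 differences were -0.34 for Bbs4 (limma adjusted p = 0.266) and -0.68 for Bbs5 (adjusted p = 0.392, and 0.0818 with the replicate number as a block). After quantile normalization Bbs4 was called in polysomal RNA (-0.52, limma adjusted p = 0.0693). These total mRNA calls were lost in 10 of 20 alternatives for Bbs4 and in 8 of 20 for Bbs5, among them leaving out WT clone 28 (limma adjusted p = 0.232 and 0.211).

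Bbs1 and Bbs9 did not pass the test in either fraction. Bbs1, at chr19:4886878-4906628 (minus strand), whose protein binds Arl6 and cargo, spanned 100.4 to 150.3 in R98S total mRNA (median 115) and 84.9 to 183 in WT (median 140) (log2 difference -0.20, SE 0.14, limma adjusted p = 0.307). Bbs9, at chr9:22475715-22888280 (plus strand), a core subunit gene, spanned 439 to 680 in R98S (median 512) and 368 to 654 in WT (median 464; log2 difference 0.10, SE 0.12, limma adjusted p = 0.593). For both genes most R98S libraries lay within the WT range. Without WT clone 36 Bbs1 was called in total mRNA (-0.34, limma adjusted p = 0.0627), and without WT clone 29 its difference was -0.064. In polysomal RNA the log2 differences were 0.21 for Bbs1 (SE 0.53) and -0.08 for Bbs9 (SE 0.15), with limma adjusted p of 0.889 and 0.844. The core subunits Bbs2, Bbs7 and Bbs9 thus had 3 different patterns: Bbs2 was lower in R98S, Bbs7 was near 0 in WT, and Bbs9 did not pass the test.

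**Figure D3:**
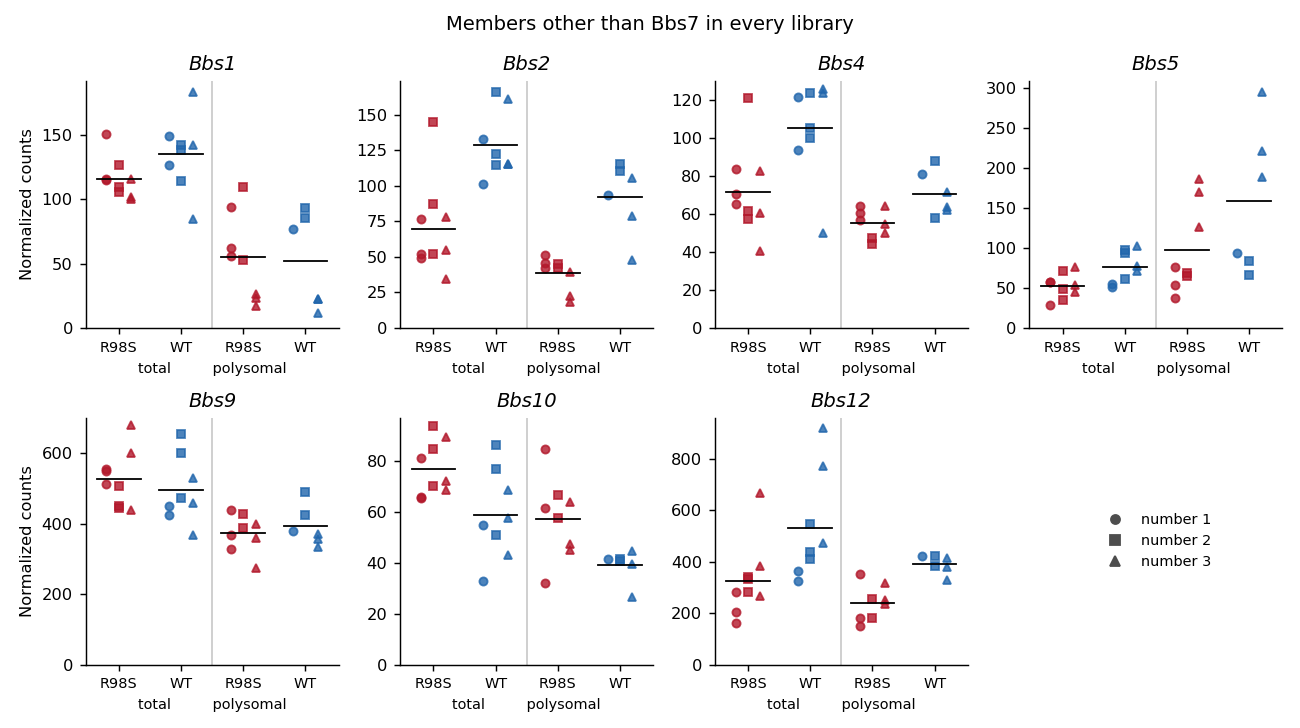
Normalized counts of the 7 members other than Bbs7 in every library, with R98S in red and WT in blue, total mRNA left and polysomal RNA right of the line in each panel, symbols for the replicate number and black lines for group means. The Bbs2 and Bbs12 libraries of R98S lie mostly below those of WT in both fractions, the 1 high R98S value of Bbs2 in total mRNA is clone 13 number 2, and the Bbs1 and Bbs5 values of number 3 part from the others in polysomal RNA.

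The subunit genes that the selection did not list behaved in more than one way. Ttc8 fell from 60.8 ± 24.9 (SD, n = 8) in WT to 26.6 ± 18.3 (SD, n = 9) in R98S total mRNA (log2 difference -1.30, SE 0.35, limma adjusted p = 0.0110), and from 77.3 ± 33.9 to 31.6 ± 13.8 in polysomal RNA (-1.26, SE 0.33, limma adjusted p = 0.0239). As for Bbs2, its 2 highest R98S total mRNA values were in clones 13 and 35 with number 2, at 66.3 and 45.1, and the difference without them was -1.66. The call was lost without number 3 in total mRNA (limma adjusted p = 0.169), and without number 1 (0.172) or number 3 (0.106) in polysomal RNA. Bbip1 averaged 492 ± 48.8 in R98S and 516 ± 58.8 in WT total mRNA and did not pass (limma adjusted p = 0.636). Arl6 averaged 123.3 ± 19.0 in R98S and 155 ± 27.6 in WT, lower by a log2 difference of -0.33 (limma adjusted p = 0.0958), a call that was lost in 12 of 20 alternatives, among them without R98S clones 13 and 35 of number 2 (-0.33, limma adjusted p = 0.114).

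The chaperonin-like members moved in opposite directions. Bbs12, a gene of 2 exon blocks at chr3:37312554-37321453 (plus strand) on the chromosome of Bbs7, spanned 161 to 666 (median 283) in R98S total mRNA and 327 to 922 (median 456) in WT, and 5 of 9 R98S libraries lay below all WT libraries. It fell by 0.73 on the log2 scale (SE 0.24, limma adjusted p = 0.0375). In polysomal RNA R98S libraries spanned 151 to 354 (median 243) and WT libraries 329 to 424 (median 399), 7 of 8 from R98S were below every one from WT, and Bbs12 had a log2 difference of -0.75 (SE 0.19, limma adjusted p = 0.0205). The limma adjusted p in total mRNA was 0.139 without R98S clone 13, 0.113 without WT clone 29 and 0.134 without number 2, and without only R98S clones 13 and 35 of number 2 the difference was -0.78 (limma adjusted p = 0.0437). In polysomal RNA it was 0.109 and 0.139 without those clones, and 0.117 and 0.138 without numbers 1 and 2.

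Bbs10, a gene with 1 exon at chr10:111298679-111301727 (plus strand), spanned 65.5 to 93.8 (median 72.4) in R98S total mRNA and 32.9 to 86.3 (median 56.3) in WT, and it was the member other than Bbs7 that rose (log2 difference 0.42, SE 0.17, limma adjusted p = 0.0885). All 9 R98S libraries lay above the WT median and 2 lay above every WT library. This call was lost in 13 of 20 alternatives, and without WT clone 29 the difference was 0.16 with a limma adjusted p of 0.516. Without R98S clones 13 and 35 of number 2 it was 0.42 with a limma adjusted p of 0.125. In polysomal RNA 7 of 8 R98S libraries exceeded all WT libraries, which ran from 26.4 to 44.6, and the log2 difference of 0.51 (SE 0.23) had a limma adjusted p of 0.193, while DESeq2 on the recovered reads called it (0.57, adjusted p = 0.0794). Mkks averaged 378 ± 35.8 in R98S and 335 ± 29.9 in WT total mRNA (log2 difference 0.17, limma adjusted p = 0.170), and 27.3% of its 50-base windows occurred in transcripts of another gene.

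Of the 7 members tested, 5 passed in total mRNA, 1 higher and 4 lower in R98S, where 30.3% of the 11133 genes tested passed. In polysomal RNA 2 of 7 passed, both lower, where 13.5% of 10707 genes passed, and with the replicate number as a block 3 of 7 did, where 30.9% of all genes passed. The median log2 difference of the 7 was -0.54 in total mRNA and -0.34 in polysomal RNA, against 0.00 and -0.02 over all genes tested. In neither fraction did the libraries of any of the 7 separate without overlap, as those of 3.53% of all genes did in total mRNA and 4.96% in polysomal RNA. Without clones 13 and 35 of number 2, 4 of 7 passed in total mRNA, all lower, where 3806 of 11133 genes passed. The count in total mRNA fell to 2 without number 2, without number 3, or without any 1 of R98S clone 11, R98S clone 35, WT clone 28 and WT clone 29, and Bbs2 was among those called each time. At these settings between 1338 and 2984 of the 11133 genes passed. The p-values measure the spread between libraries, of which up to 3 come from 1 clone. With the clone means as samples, 3 against 3, 3 of 7 passed in total mRNA, where 3132 of 11133 genes did. In polysomal RNA 1 of 7 passed with clone means, where 751 of 10707 genes did.

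**Figure D4:**
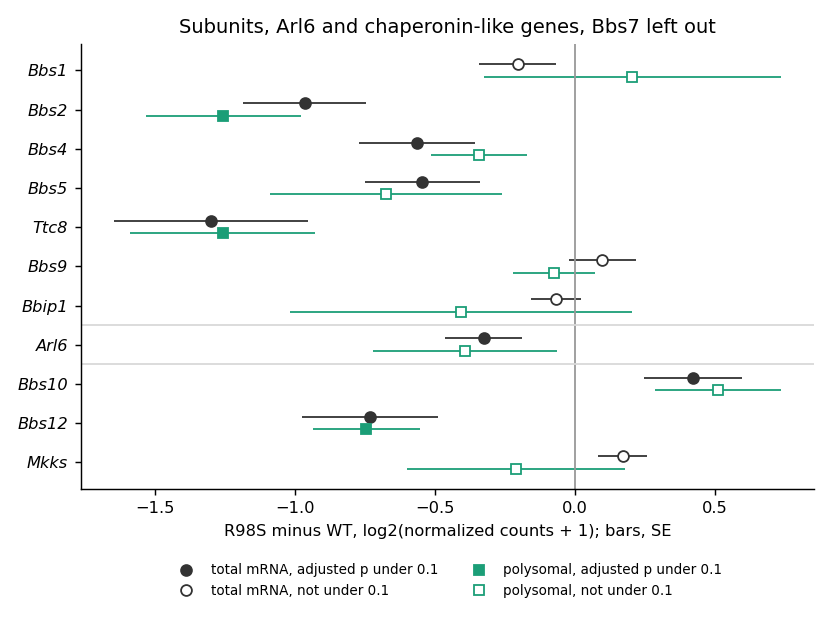
Difference R98S minus WT in log2(normalized counts + 1) with its SE for the subunit genes other than Bbs7, Arl6 and the chaperonin-like genes, in total mRNA (circles) and polysomal RNA (squares); filled symbols have a limma adjusted p under 0.1. Bbs2, Ttc8 and Bbs12 are lower in R98S in both fractions, and Bbs10 is the gene called higher by limma, in total mRNA.

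Within single replicate numbers the differences of the called members kept their sign in total mRNA. That of Bbs2 was -0.98, -0.60 and -1.27 for numbers 1 to 3, that of Bbs12 -0.71, -0.54 and -0.77, and that of Bbs4 -0.55, -0.53 and -0.64. Those of Bbs5 were -0.23, -0.72 and -0.53, and those of Bbs10 were 0.71, 0.24 and 0.45. The smallest Bbs2 difference, in number 2, is the one that holds the pair of R98S libraries between the genotypes. The members were called on these same libraries, so the kept signs are a description and not a separate test.

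The polysomal to total ratio asks whether a transcript was more or less associated with polysomes than its amount in the cell predicts. It was taken within each pair of libraries of the same clone and number as log2 polysomal minus log2 total, and since the 2 tables were scaled separately it has meaning only relative to other genes. None of the 7 members passed the test between the genotypes (0 of 7 called by limma, 0 of 7 with an unadjusted p under 0.05, limma adjusted p from 0.936 to 0.987), where 0.0470% of 10627 genes were called. The differences ran from -0.32 for Bbs2 (SE 0.35) to 0.45 for Bbs1 (SE 0.47). For Bbs7 the ratio can be read only in R98S, where its mean was -1.36 ± 1.25 (SD, n = 8), above 9.76% of all genes. Bbs1 was as low, at -1.31 ± 0.82 in R98S and -1.76 ± 1.12 in WT, whereas Bbs5 stood at 0.68 ± 0.70 and 0.86 ± 0.82, above 94.3% and 93.2% of all genes.

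The ratios of number 3 did not overlap those of numbers 1 and 2 for 5 of 12 genes of the group in R98S (Bbs1, Bbs5, Bbs7, Bbip1 and Mkks), as for 45.0% of all genes. In WT this held for 6 of 11 (Bbs1, Bbs5, Bbs12, Bbip1, Arl6 and Mkks), as for 47.3% of all genes. In R98S the Bbs7 ratio, as a linear value, was 0.767, 0.626 and 0.510 in number 1 (clones 11, 13 and 35) and 1.06 and 0.721 in number 2 (clones 13 and 35). In number 3 it was 0.159, 0.109 and 0.166. Number 3 was thus the lowest in each clone. On the log2 scale number 3 lay 2.33 below numbers 1 and 2, and only 0.339% of all genes moved further down. Bbs1 moved the same way, by -1.48 in R98S and -2.02 in WT.

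Other genes of the group moved in the opposite direction in number 3. Bbs5 shifted by 1.25 in R98S and 1.23 in WT, Mkks by 1.18 and 1.88, and Bbip1 by 1.91 and 2.5. The shift of Bbip1 exceeded that of 98.1% of all genes in R98S and 99.0% in WT, while that of Bbs2, Bbs4, Bbs9, Bbs10 and Bbs12 was between -0.78 and 0.43 in both genotypes. Over 10126 genes with a known exon length the shift had a Spearman rho of -0.49 with that length in R98S and -0.47 in WT, given as a description across genes of the same libraries, and its part in the shifts of these genes was not tested. Bbs7, with 5390 exon bases, moved further down than Bbs1 with 7674, and Bbip1 with 4402 moved up. The fall was in the polysomal libraries: in R98S the polysomal Bbs7 value of number 3 was lower by 1.74 on the log2 scale, with a total mRNA value higher by 0.58.

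**Figure D5:**
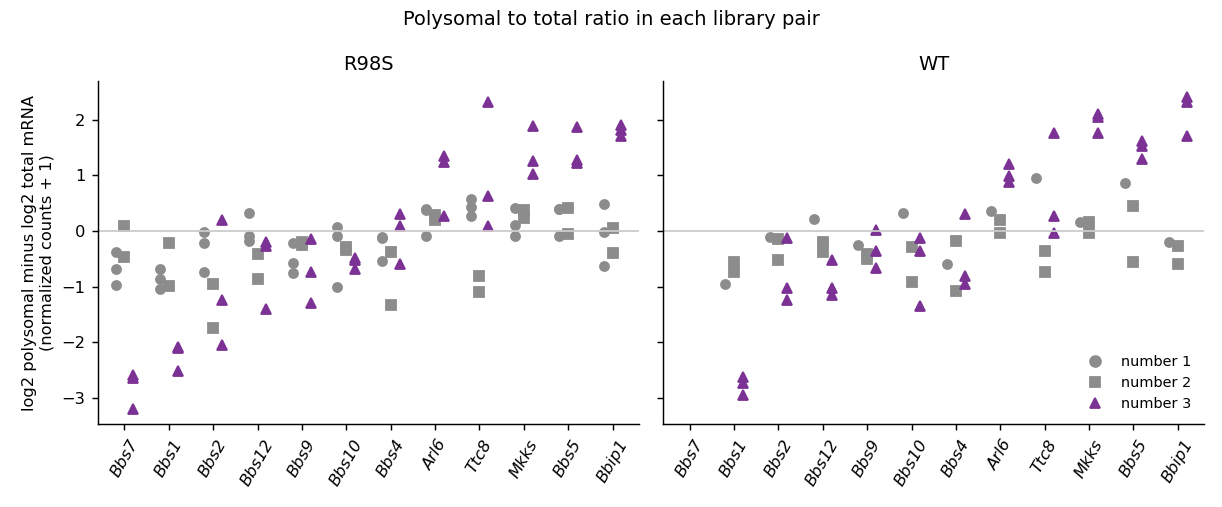
Log2 polysomal minus log2 total mRNA in each library pair of the same clone and number for R98S (left) and WT (right), by gene, with number 3 in purple and numbers 1 and 2 in grey; Bbs7 is not drawn in WT, where it was near 0 in both fractions. Number 3 lies below the others for Bbs7 and Bbs1 and above them for Bbs5, Mkks and Bbip1, in both genotypes where drawn.

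The remaining lists were read beside these members. Of 15 other Bardet-Biedl and partner genes tested, 2 passed as higher and 6 as lower in total mRNA, where 30.3% of all genes passed. In polysomal RNA 0 passed as higher and 3 as lower, where 13.5% of all genes passed, and with the replicate number as a block 4 were lower, Lztfl1 being added (limma adjusted p = 0.0173), where 30.9% of all genes passed. The median log2 difference was -0.13 in total mRNA and -0.21 in polysomal RNA. Trim32, an E3 ligase gene (BBS11), rose by a log2 difference of 0.43 and Mks1, a gene of the ciliary transition zone, by 0.62 in total mRNA (limma adjusted p = 0.0224 and 0.0242). Those lower were Ttc8, Arl6, Lztfl1, whose protein regulates BBSome traffic (-0.38, limma adjusted p = 0.0608), Wdpcp (-0.53, adjusted p = 0.0785), Ift172 (-0.71, adjusted p = 0.0332) and Ift74 (-0.85, adjusted p = 0.00448). In polysomal RNA Wdpcp, Ift74 and Ttc8 fell, Wdpcp by 0.93 on the log2 scale (limma adjusted p = 0.00574). The total mRNA calls of Lztfl1 and Wdpcp were lost in 8 and 9 of 20 alternatives, and the polysomal call of Ift74 in 6 of 18.

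The CCT subunit genes, whose chaperonin works with Bbs10, Bbs12 and Mkks, were tested as a list of 8. None passed in total mRNA (0 called by limma, edgeR or DESeq2, 0 with an unadjusted p under 0.05, median log2 difference -0.04), where 30.3% of all genes passed by limma. With the replicate number as a block 1 passed in total mRNA, where 38.4% of all genes did. In polysomal RNA Cct5 fell by 0.54 and Cct7 by 0.50 (limma adjusted p = 0.0398 and 0.0573). These were 2 of 7 tested, and 6 of 7 passed with the replicate number as a block, where 13.5% and 30.9% of all genes passed. Both polysomal calls were lost without number 1 or 2, or without R98S clone 11, R98S clone 35 or WT clone 28. For the polysomal to total ratio limma called 0 of 7 CCT genes, where 0.0470% of all genes were called. Of the 7, 5 had an unadjusted p under 0.05, a share that was not taken over all genes. All 7 ratio differences were negative, with a median of -0.42 against 0.01 over all genes, and the list was not tested as a set. Of the intraflagellar transport genes, which carry BBSome cargo along the cilium, 2 of 5 tested complex A genes passed as lower in total mRNA, where 30.3% of all genes passed. They were Ift122 (-1.02, limma adjusted p = 7.45e-04) and Wdr19 (-1.22, limma adjusted p = 0.0133). In polysomal RNA 0 of 5 passed by limma, edgeR or DESeq2 (1 with an unadjusted p under 0.05 by limma), where 13.5% of all genes passed by limma. Ift122 passed there with the replicate number as a block, where 30.9% of all genes did. Without the block the log2 differences were -0.53 for Ift122 (limma adjusted p = 0.142) and -0.16 for Wdr19 (limma adjusted p = 0.923). Of 14 complex B genes, 4 passed as lower and 2 as higher, where 30.3% of all genes passed, and Ift74 and Ift172 were counted among the partner genes too. With the replicate number as a block 5 passed as lower, Ift80 being added (limma adjusted p = 0.0406), where 38.4% of all genes passed. Ttc26 was lowest (-1.04, limma adjusted p = 3.79e-04) and Traf3ip1 highest (0.34, limma adjusted p = 0.0343). The calls of Hspb11 (-0.86, limma adjusted p = 0.0661) and Ift20 (0.23, limma adjusted p = 0.0624) were lost in 11 and 10 of 20 alternatives. In polysomal RNA 3 of 14 passed, all lower, Ttc26 (-1.30, limma adjusted p = 5.29e-04), Ift74 (-1.11, adjusted p = 0.0453) and Ift80 (-0.52, adjusted p = 0.0980, a call lost in 10 of 18 alternatives). With the replicate number as a block Ift57 was called there too, as higher (0.49, limma adjusted p = 0.0789). Of all genes, 13.5% passed in polysomal RNA and 30.9% with the block. Of 7 ciliary transcription factor genes 2 could be tested: Rfx2 fell from 445 ± 121 in WT to 229 ± 77.5 in R98S total mRNA (-0.98, limma adjusted p = 0.00163), and Rfx1 averaged 395 ± 57.8 and 373 ± 80.1 (limma adjusted p = 0.618). In polysomal RNA neither passed by limma, edgeR or DESeq2 (0 with an unadjusted p under 0.05), with -0.45 for Rfx2 (limma adjusted p = 0.628, and 0.0632 with the replicate number as a block).

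In the Hedgehog pathway, which signals through cilia in other cells, 6 of 12 genes could be tested in total mRNA. Smo, the signal transducer gene, was read at 141 to 338 in R98S and at 74.3 to 124 in WT (log2 difference 1.35, limma adjusted p = 4.16e-05), and it also rose in polysomal RNA (1.34, limma adjusted p = 4.33e-05). Ptch1 fell by 0.53 in total mRNA (limma adjusted p = 0.0602), a call lost in 7 of 20 alternatives, and had a limma adjusted p of 0.808 in polysomal RNA. Gli1, a target gene of the pathway, had a log2 difference of -0.24 (limma adjusted p = 0.696).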

How the data were processed

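Total mRNA and polysomal RNA were analysed in 17 and 14 libraries, grouped by the genotype, clone and number in the sample labels. According to the methods and processing notes of the study, poly(A) libraries were made with a stranded kit, the leading base was trimmed, rRNA and tRNA reads were removed with Bowtie2, the rest was aligned to mm10 with TopHat2 2.0.11, and exon reads were counted with HTSeq; the strand setting is not given in the sources used here. Each table, as deposited, holds a signal for every gene: reads counted by the authors, scaled by a DESeq2 size factor of the library that was estimated inside that table, so levels set across the 2 tables are relative. Whole reads were recovered for 100% of values (tolerance 0.001).

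Values were transformed as log2(value + 1), which understates changes of low genes, and genes with a table mean of at least 10 were fitted with limma 3.58.1 in R 4.3.3 (lmFit, eBayes with a variance trend; two-sided, Benjamini-Hochberg over all genes tested, called at an adjusted p under 0.1). The ratio was fitted over 8 R98S and 6 WT pairs of libraries of the same clone and number, and clones by an F test with the replicate number as a block. Alternatives included edgeR 4.0.16 and DESeq2 1.42.0 on recovered reads, other pseudocounts and filters, and left-out numbers and clones. The procedure was tested on simulated data. For the fits between genotypes these were independent libraries with no clone or replicate-number effect, so they do not give the error rate in the real libraries. Nothing in the labels says that numbers are separate cultures of a clone, so p-values measure the spread between these libraries only. Same-numbered R98S and WT libraries deviated together from their group means (r from 0.48 to 0.62 in total mRNA, 0.67 to 0.87 in polysomal RNA and 0.54 to 0.81 for the ratio), and this correlation, not a label, is the basis for the pairing.

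The members and lists were chosen with earlier results of these data known. Named genes were the members, genes of the pathway lists that were called or lowest or highest, genes starting within 500 kb of Bbs7, and the 5 genes with the largest r with Bbs7. A few genes that this rule covers are not reported here. Exon lengths and positions came from GENCODE M21, and promoters from RefSeq (8 of 8 members matched). Lists of B-lymphoid, T cell, myeloid, erythroid, multiciliated, fibroblast and epithelial markers were used to check the cells.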

Additional observations from a re-analysis of the deposited data

Results flagged for a closer look

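Of 28 groups of libraries (the 7 members other than Bbs7, 2 genotypes, 2 fractions), 4 held a library far from the rest of its group by Dixon's criterion, where chance gives about 1 in 20. Bbs2 was read at 145 normalized counts in R98S total mRNA of clone 13 number 2, against 34.2 to 87.2 in the other R98S libraries, and this is one of the 2 libraries that lay between the genotypes. Bbs4 was read at 49.98 in WT total mRNA of clone 36 number 3, against 93.4 to 126 in the other WT libraries. Bbs10 was read at 26.4 in WT polysomal RNA of clone 36 number 3, against 39.6 to 44.6. Bbs12 was read at 666 in R98S total mRNA of clone 11 number 3, against 161 to 383. None of these libraries was left out of the comparisons.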

How the results depend on the processing

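Leaving out a replicate number or clone moved the count of genes called from 3369 to between 1338 and 3003 in total mRNA, from 1449 to between 608 and 2037 in polysomal RNA, and from 5 to between 0 and 84 for the ratio. For the 7 members it left 2 to 5 called in total mRNA, 1 to 2 in polysomal RNA and 0 for the ratio. For clones it gave 57 to 861 genes in R98S and 0 to 31 in WT. The replicate block gave 3307 genes in polysomal RNA and 46 for the ratio, and among members the pairing changed only the polysomal call of Bbs5; without the block 145 genes differed between R98S clones. With clone means as samples 751 genes were called in polysomal RNA, 0 for the ratio, 3 members in total mRNA and 1 in polysomal RNA. Members called in total mRNA were 2 with no filter and 3 in matched library pairs only. The ratio count was 1 with a pseudocount of 5, 3 with no filter, 1 with a mean of at least 50, 2 after quantile normalization and 109 without WT clone 29 of number 1. edgeR called 27 genes between WT clones. Differences that changed sign were those of Bbs10 ratio (-0.044 with the replicate block, -0.17 after quantile normalization, -0.0031 without R98S clones 13 and 35 of number 2, and -0.15 to 0.46 on leaving out numbers or clones), Bbs12 ratio (-0.025 with the block, -0.13 to 0.32) and 1810062G17Rik in total mRNA (0.16 in matched pairs, -0.37 to 0.21). Leaving out numbers or clones gave Bbip1 -0.13 to 0.011 and Bbs9 -0.032 to 0.32 in total mRNA, Bbs1 -0.24 to 0.66, Bbip1 -0.86 to 0.077 and Mkks -0.51 to 0.16 in polysomal RNA, and for the ratio Bbs5 -0.47 to 0.082 and Bbs1 -0.0094 to 0.76. None of these had been called. The log2 difference of Bbs7 was 9.32 and 8.11 with a pseudocount of 5 (total mRNA, polysomal RNA) and 11.68 and 12.07 with edgeR, since 9 and 2 WT reads set it. Of the 5 genes most like Bbs7, 0 were among the top 5 by Spearman and 2 in polysomal libraries. The causes were not tested.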
